A study of Rattus norvegicus with 3 samples.

Results

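Transport motors are the proteins that walk along microtubules and carry cargo through the cell. Their genes were chosen by name: every gene whose single symbol on the array's annotation is Kif followed by a digit, or starts with Klc, Dync, Dynl or Dctn, except Dynlrb2. This gave 51 of 14217 named genes, 31 of them kinesin heavy or light chains and 20 of them dynein or dynactin subunits. RNA of rat brainstem was measured on 3 Affymetrix arrays, 1 for each group. The groups are labelled Hand Acu, read here as acupuncture from the title of the series, TBI, traumatic brain injury, and Sham, and all were taken 1 h after modelling. The labels give 5 rats, and the brainstem samples were mixed before extraction, so each array is taken to hold 1 pool. They do not say whether rats given acupuncture were also injured, how the injury was made, or what Hand stands for. Strain, sex and age are not given in the sources used here.

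Kinesins mostly move towards the growing plus end of a microtubule, which in an axon means away from the cell body, and cytoplasmic dynein moves towards the minus end, back to the cell body. Dynein needs the dynactin complex and an adaptor to run far, and its light chains and intermediate chains hold the complex together and contact cargo. In neurons with long axons, such as those of brainstem motor nuclei and tracts, these motors carry synaptic vesicle precursors, mitochondria, endosomes and injury signals. Some kinesins serve cell division instead, and dynein-2 works inside cilia.

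Values are log2 signals as deposited, made with MAS5, Affymetrix's method that turns the perfect-match and mismatch probes of a probe set into 1 signal. For each gene the probe set with the highest mean over the 3 arrays was used. A gene counted as above the floor if that mean was at or above 7.44, the median of all probe sets other than controls. With 1 array per group no difference has an error or a test, and each describes these RNA pools alone. Precision is limited by this number of arrays. Probe sets differ in brightness, so a level is compared between arrays and never between genes.

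The beta-actin probe sets give a 3'/5' ratio that climbs as RNA breaks down. It was 6.69 in Hand Acu, 6.37 in TBI and 5.58 in Sham, whereas the same ratio for Gapdh was 1.28 in Hand Acu, 1.20 in TBI and between them in Sham. Of 12 neuron markers, all 12 were above the floor, with median log2 differences of 0.03 for TBI minus Sham, −0.01 for Hand Acu minus TBI and 0.03 for Hand Acu minus Sham. Single neuron markers ranged from −0.31 (Rbfox3) to 0.22 (Uchl1) for TBI minus Sham. For Hand Acu minus TBI they ranged from −0.37 to 0.13, and for Hand Acu minus Sham from −0.27 to 0.09. Of 9 brainstem and hindbrain markers on the array, 3 were above the floor (Hoxa5, Chat and Slc5a7), and Slc6a5, Dbh, Slc6a2, Glra1, Hoxc4 and Hoxd3 were below it. All 3 were lower in Sham, with medians of 0.25 for TBI minus Sham, −0.08 for Hand Acu minus TBI and 0.28 for Hand Acu minus Sham, and Hoxa5 had 8.34 in Hand Acu, 8.57 in TBI and 7.35 in Sham. Of those below the floor, Glra1 and Slc6a5 were highest in Sham, and Dbh, Slc6a2, Hoxc4 and Hoxd3 were lowest there. The summed linear signal of the 9 was 2099 in Hand Acu, 2193 in TBI and 1715 in Sham. Cerebellum markers were instead highest in Sham by their sum, with 11 of 13 above the floor and Zic1 and Eomes below it. Their summed linear signal was 26123 in Hand Acu, 26799 in TBI and 35854 in Sham. Their median log2 difference was −0.55 for TBI minus Sham, −0.06 for Hand Acu minus TBI and −0.58 for Hand Acu minus Sham. The tissue markers thus differed between Sham and the other arrays, and the part of tissue makeup in the motor genes' values was not tested. In RNA of whole tissue, fewer cells of a type and less RNA per cell cannot be told apart.

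The motor genes were at nearly the same level on all 3 arrays. Of the 51, 36 were above the floor: all 20 dynein and dynactin genes and 16 of 31 kinesin and light chain genes. None of the 36 was 1.5-fold apart in any comparison. Of the 9241 genes above the floor, 1.55% were 1.5-fold apart for TBI against Sham, 1.21% for Hand Acu against TBI and 1.89% for Hand Acu against Sham. At 2-fold the shares of all genes were 0.0974%, 0.0433% and 0.195% in the same order, and 0 motor genes passed. With 36 genes, shares of that size amount to less than 1 gene, so a count of 0 is near the background. The median gap between a motor gene's highest and lowest array was 0.14 on the log2 scale, or 1.10-fold, against 0.18 over all genes above the floor. Among genes above a higher floor of 9.25, the median gap was 0.10 for the 25 motor genes and 0.14 for all 5255. The widest gap among the 36 was 0.48, or 1.39-fold, for Dync2i2.

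**Figure D1:**
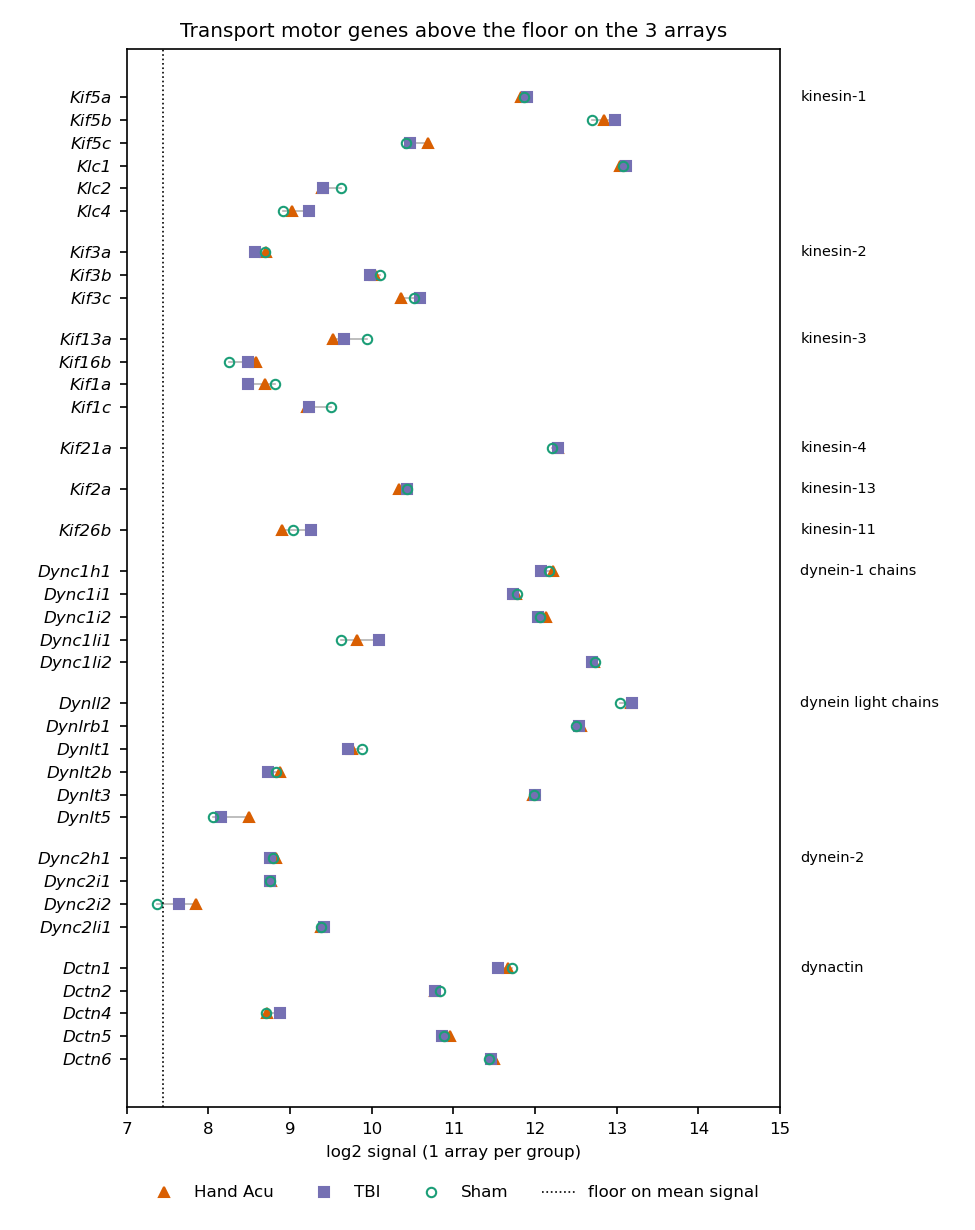
Log2 signal of the 36 motor genes above the floor, with a triangle for the Hand Acu array, a square for the TBI array and an open circle for the Sham array, 1 array per group, and a dotted line at the floor of 7.44 on mean signal. The 3 symbols of a gene lie within 0.48 of each other, and positions are not comparable between genes.

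No array stood out as the high or the low one for these genes. The Hand Acu array was the highest of the 3 for 13 motor genes (36.1%, against 32.3% of all genes above the floor), the TBI array for 13 (36.1%, against 33.4%) and the Sham array for 10 (27.8%, against 34.3%). The Hand Acu array was the lowest for 10 (27.8%, against 32.0%), the TBI array for 13 (36.1%, against 31.7%) and the Sham array for 13 (36.1%, against 36.3%).

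At a lower threshold of 0.32 on the log2 scale, a few genes passed. For TBI minus Sham Dync1li1 was higher and Kif1a lower, which is 1 of 36 each way, where 5.05% of all genes were that much higher and 5.05% that much lower. For Hand Acu minus TBI Dynlt5 was higher and Kif26b lower, again 1 of 36 each way, against 4.04% and 4.12% of all genes. For Hand Acu minus Sham Dync2i2, Dynlt5 and Kif16b were higher, 3 of 36, against 5.50% of all genes, and Kif13a was lower, 1 of 36, against 5.46%. These counts are near or under the background, so nothing is read from them about the motor genes as a group. The median log2 difference of the 36 was 0.01 for TBI minus Sham, 0.02 for Hand Acu minus TBI and 0.0050 for Hand Acu minus Sham, where all genes had medians of 0.0043, −0.0024 and 0.0037 in that order. Of the 36, 19, 19 and 20 were above 0 in the same order, where the shares of all genes were 51.0%, 49.3% and 51.0%.

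**Figure D2:**
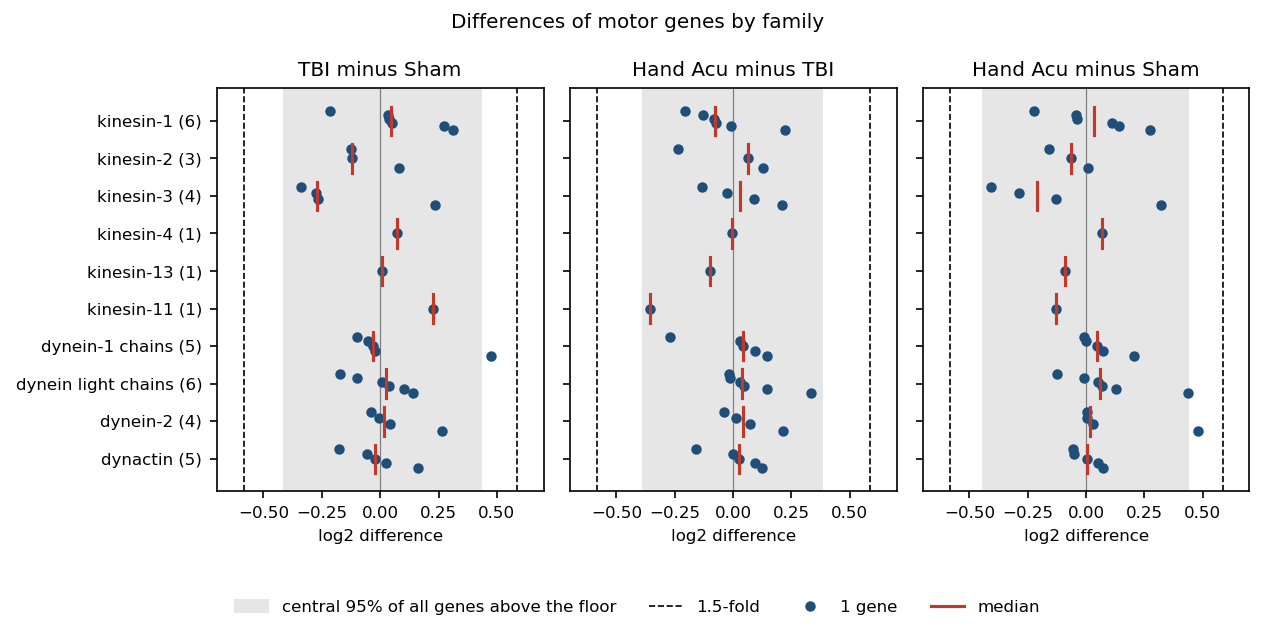
Log2 difference of each of the 36 motor genes (points) by family, with the number of genes in brackets, the family median (red bar), the central 95% of all genes above the floor (grey) and 1.5-fold (dashed lines). Every point lies inside the dashed lines, and Dync1li1 in the first panel and Dync2i2 in the third lie outside the grey band.

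The promoters of 4 genes are shown for the range of sequence among these genes. They are Dync1h1, the force-producing heavy chain, whose gap over the arrays was 0.15, Kif13a, which was lowest for Hand Acu minus Sham, and Dync2i2 and Dynlt5, which were highest there. Each is the 250 bases before the annotated start, 5′ to 3′ on the gene's own strand, from RefSeq, build GRCr8, with GC boxes (GGGCGG or its reverse complement CCGCCC) in capitals.
Dync1h1, chr6:135436228-135436477, plus strand: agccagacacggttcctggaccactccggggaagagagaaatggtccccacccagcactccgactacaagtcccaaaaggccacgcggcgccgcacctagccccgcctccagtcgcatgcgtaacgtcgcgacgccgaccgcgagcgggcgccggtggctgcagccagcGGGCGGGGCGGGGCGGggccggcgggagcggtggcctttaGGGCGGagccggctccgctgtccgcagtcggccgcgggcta
Kif13a, chr17:17972603-17972852, plus strand: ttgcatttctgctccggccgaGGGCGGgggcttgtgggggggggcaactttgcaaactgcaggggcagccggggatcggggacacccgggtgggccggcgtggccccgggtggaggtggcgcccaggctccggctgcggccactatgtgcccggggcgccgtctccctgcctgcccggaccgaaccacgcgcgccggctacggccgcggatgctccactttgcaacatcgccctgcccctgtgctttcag
Dync2i2, chr3:33719961-33720210, minus strand: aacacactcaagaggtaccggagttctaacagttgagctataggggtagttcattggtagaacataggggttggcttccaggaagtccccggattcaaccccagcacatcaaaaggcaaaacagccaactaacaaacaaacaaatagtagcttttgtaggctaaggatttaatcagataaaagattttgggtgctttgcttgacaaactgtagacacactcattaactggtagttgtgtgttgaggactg
Dynlt5, chr5:122971323-122971572, plus strand: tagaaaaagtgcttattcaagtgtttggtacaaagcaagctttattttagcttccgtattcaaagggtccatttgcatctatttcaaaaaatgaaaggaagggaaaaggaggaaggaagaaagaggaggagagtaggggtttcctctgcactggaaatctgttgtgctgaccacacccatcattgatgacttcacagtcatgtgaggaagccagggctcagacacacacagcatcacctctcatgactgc
The Dync1h1 promoter held 4 GC boxes, of which 3 overlap by their end bases at −81 to −66 from the start and 1 lies at −41 to −36. Kif13a had 1, at −229 to −224, and Dync2i2 and Dynlt5 had 0. By gene identifier, 30 of the 36 genes had a promoter in the table. Of these 30, 18 (60.0%) held a GC box, against 60.9% of the 7720 promoters found for all genes above the floor and 30.5% of all 33469 promoters in the table. The motor genes' promoters were thus near those of other genes detected on these arrays. Their median GC content was 61.6%, against 60.8% for all genes above the floor. A CCAAT box (CCAAT or ATTGG) was in 33.3% of them against 35.8%, a TATA box (TATAAA or TTTATA) in 3 of the 30 against 5.98%, and the core of a cyclic AMP response element (TGACG or CGTCA) in 30.0% against 29.6%. Dync2i2 at 42.4% and Dynlt5 at 43.6% had the lowest GC content of the 30, which was seen after their values were known, and a GC content or a letter match is a description and not a binding site.

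Kinesin-1 is the conventional kinesin, a pair of Kif5 heavy chains with a pair of Klc light chains that bind cargo. Its 6 genes above the floor had median log2 differences of 0.05 for TBI minus Sham, −0.08 for Hand Acu minus TBI and 0.03 for Hand Acu minus Sham, and none reached a difference of 0.32. Kif5a, the heavy chain most tied to neurons, had log2 signals of 11.83 in Hand Acu, 11.91 in TBI and 11.87 in Sham. For Kif5b, the heavy chain found in most cells, they were 12.85 in Hand Acu, 12.97 in TBI and 12.70 in Sham. Kif5c, another neuronal heavy chain, had 10.69 in Hand Acu, 10.47 in TBI and 10.42 in Sham. By these probe sets Kif5a and Kif5b were highest on the TBI array and Kif5c on the Hand Acu array. The TBI minus Sham difference was 0.04 for Kif5a, 0.27 (1.21-fold) for Kif5b and 0.05 for Kif5c. A further Kif5b probe set, with 8.98 in Hand Acu, 8.80 in TBI and 9.06 in Sham, went the opposite way at −0.26. The second Kif5c probe set, with 8.29 in Hand Acu, 8.36 in TBI and 8.17 in Sham, was highest in TBI, and the third Kif5a probe set, with 8.32 in Hand Acu, 8.07 in TBI and 8.2 in Sham, was highest in Hand Acu. Which array was highest thus depends on the probe set for all 3 heavy chains.

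Among the light chains, Klc1, the main neuronal one, had 13.04 in Hand Acu, 13.11 in TBI and 13.08 in Sham. Klc2 had 9.40 in Hand Acu, 9.41 in TBI and 9.62 in Sham, with differences from Sham of −0.22 for Hand Acu and −0.21 for TBI. Klc4 had 9.02 in Hand Acu, 9.23 in TBI and 8.91 in Sham, which put TBI 0.31 (1.24-fold) above Sham and Hand Acu 0.20 below TBI. The light chains thus had no common order over the arrays: Klc2 was higher on the Sham array and Klc4 on the TBI array. Klc1 had 3 probe sets above the floor, and all 3 were lower on the Hand Acu array than on the TBI array, by between 0.02 and 0.44. Klc3 was below the floor, at 6.39 in Hand Acu, 6.36 in TBI and 6.04 in Sham.

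Kinesin-2 motors join Kif3a with Kif3b or with Kif3c, and carry cargo in axons and into cilia. Kif3a had 8.71 in Hand Acu, 8.58 in TBI and 8.70 in Sham. Kif3b was close to level, with 10.04 in Hand Acu, 9.98 in TBI and 10.10 in Sham. Kif3c, the neuronal partner, had 10.35 in Hand Acu, 10.59 in TBI and 10.51 in Sham. All 3 lay within 0.24 over the arrays. Kif3a and Kif3b were each 0.12 lower on the TBI array than on the Sham array, and both Kif3a probe sets above the floor had that direction.

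Kinesin-3 differences had an SD over 4 genes of 0.27 for TBI minus Sham. It was 0.15 for Hand Acu minus TBI and 0.32 for Hand Acu minus Sham. The background of 9241 genes had 0.20, 0.19 and 0.21 in the order TBI minus Sham, Hand Acu minus TBI and Hand Acu minus Sham. The kinesin-3 spread was thus above that background in both comparisons with Sham and below it for Hand Acu minus TBI. It rests on 4 genes. In the same order the SD was 0.24, 0.16 and 0.09 for the 5 Dync1 genes, and 0.14, 0.11 and 0.23 for the 4 Dync2 genes. Each of these families was thus also above the background in a comparison with Sham. Kinesin-3 motors run far along a microtubule: Kif1a carries synaptic and dense-core vesicles, Kif1c carries dense-core vesicles, and Kif13a and Kif16b move endosomes. Of its 4 genes above the floor, Kif1a, Kif1c and Kif13a had lower signal in TBI than in Sham, with a median over the 4 of −0.27. They also had lower signal in Hand Acu than in Sham, with a median of −0.21. These comparisons share the Sham array. Hand Acu minus TBI had a median of 0.03.

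Kif1a had 8.69 in Hand Acu, 8.48 in TBI and 8.82 in Sham. It was the lowest of the 36 for TBI minus Sham, at −0.34 (1.27-fold lower). Its other probe set above the floor, at 8.31 in Hand Acu, 8.44 in TBI and 8.42 in Sham, had 0.02 for the same comparison. Both had Hand Acu below Sham, by −0.13 and −0.11. So the low value on the TBI array rests on 1 probe set.

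Kif13a was lower in Hand Acu and in TBI than in Sham in each of its probe sets. The brightest had 9.53 in Hand Acu, 9.67 in TBI and 9.94 in Sham, and the next had 7.91 in Hand Acu, 8.0 in TBI and 8.24 in Sham. TBI minus Sham was −0.27 and −0.24, and Hand Acu minus Sham was −0.41 (1.33-fold lower) and −0.33. The third probe set, below the floor on its mean, had 7.01 in Hand Acu, 6.44 in TBI and 7.57 in Sham, again highest on the Sham array. Hand Acu minus TBI was −0.13 and −0.10 in the probe sets above the floor and 0.57 in the one below it. Probe sets of a gene were hybridised to the same 3 pools, so they repeat the measurement of these pools and not the animals.

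Kif1c had 9.21 in Hand Acu, 9.24 in TBI and 9.50 in Sham, with TBI minus Sham at −0.26 and Hand Acu minus Sham at −0.29. Kif16b went the other way, with 8.58 in Hand Acu, 8.49 in TBI and 8.26 in Sham, so that Hand Acu was 0.32 above Sham. It has 4 further probe sets below the floor, of which 3 had the same direction and 1, the dimmest, had −1.17, and with the mean of all 5 the difference was −0.0028. By their brightest probe sets Kif1a, Kif1c and Kif13a were highest on the Sham array. The other Kif1a probe sets were highest on the TBI array. The summed signal of the cerebellum markers above was also highest on the Sham array. The summed signal of the 10 endothelium markers was 6648 in Hand Acu, 6667 in TBI and 7484 in Sham. Its members were mixed: 3 of the 10 were higher in TBI than in Sham, and 3 were higher in Hand Acu than in Sham. The lowest in both was Cldn5, at −0.44 for TBI minus Sham and −0.54 for Hand Acu minus Sham, whereas Esam had 0.18 and 0.21. The part of cerebellum or endothelium cells in the kinesin-3 values was not tested.

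**Figure D3:**
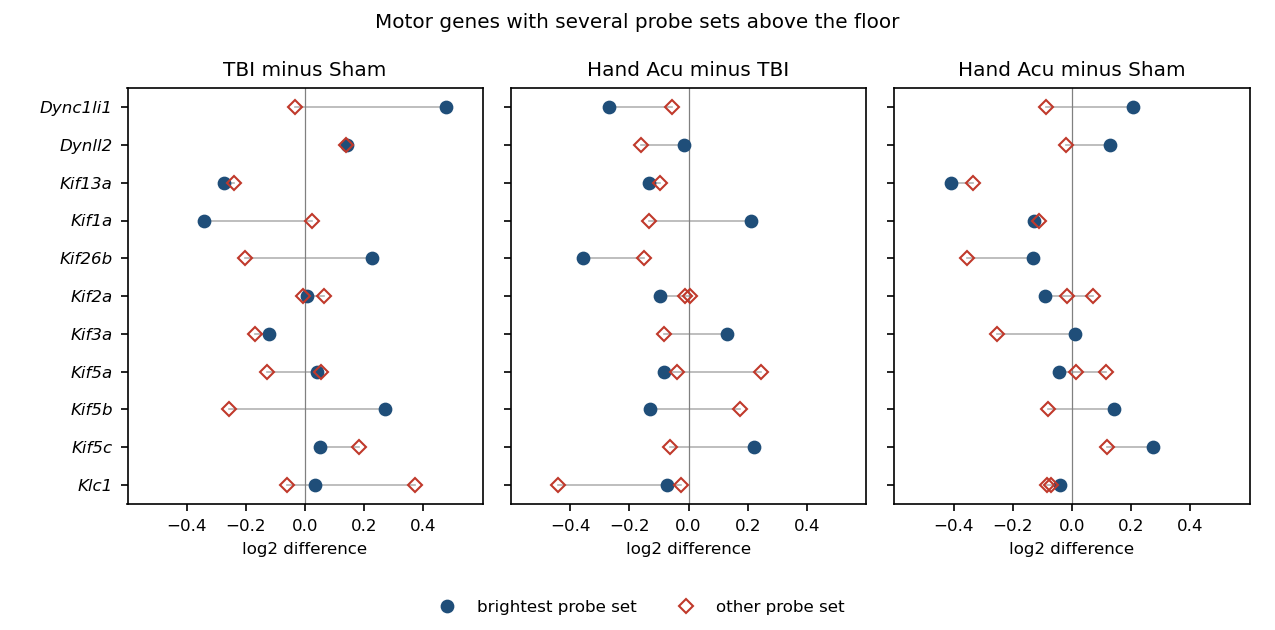
Log2 difference of every probe set above the floor for the 11 motor genes that have several, with a filled circle for the brightest probe set and an open diamond for the others. The Kif13a symbols lie on the same side of 0 in all 3 panels, whereas those of Kif5b lie on both sides.

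Several probe sets above the floor were available for 11 genes, of which 4 had all of them in 1 direction for TBI minus Sham, 5 for Hand Acu minus TBI and 5 for Hand Acu minus Sham. For the 2 brightest probe sets of a gene the direction was shared in 6, 6 and 5 of 11 genes in that order (54.5%, 54.5% and 45.5%). Over the 2073 genes with at least 2 probe sets above the floor it was shared in 57.4%, 54.0% and 55.5%. A second probe set thus shared the direction in about as many motor genes as it did not, and the shares over all genes were not far from that. Kif13a was the only 1 of the 11 with a single direction in all 3 comparisons.

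The other kinesins above the floor belong to families of microtubule regulation. Kif21a, a kinesin-4 that slows microtubule growth, had 12.28 in Hand Acu, 12.28 in TBI and 12.21 in Sham. Kif2a, a kinesin-13 that takes tubulin off microtubule ends, had 10.34 in Hand Acu, 10.43 in TBI and 10.43 in Sham. Both were within 0.10 over the arrays. Kif26b, a kinesin-11 without motor activity, had 8.90 in Hand Acu, 9.26 in TBI and 9.04 in Sham. It was the lowest of the 36 for Hand Acu minus TBI, at −0.36 (1.28-fold lower), and its other probe set above the floor was at −0.15. For TBI minus Sham its probe sets disagreed, at 0.23 and −0.20.

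Cytoplasmic dynein-1 is the main minus-end motor. The heavy chain Dync1h1, whose promoter is printed above, had 12.22 in Hand Acu, 12.07 in TBI and 12.17 in Sham. Dync1i1, the neuron-enriched intermediate chain, had 11.77 in Hand Acu, 11.73 in TBI and 11.78 in Sham. Dync1i2, the widely made intermediate chain, had 12.14 in Hand Acu, 12.04 in TBI and 12.06 in Sham. These 3 were lowest on the TBI array, by at most 0.15 from the highest. Dync1li2, a light intermediate chain that links the motor to adaptors, had 12.73 in Hand Acu, 12.70 in TBI and 12.73 in Sham.

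Dync1li1, the other light intermediate chain, was the exception among the dynein-1 genes. It had 9.83 in Hand Acu, 10.09 in TBI and 9.62 in Sham, so that TBI was 0.48 (1.39-fold) above Sham, the highest of the 36. Its second probe set had 8.44 in Hand Acu, 8.49 in TBI and 8.53 in Sham, with TBI minus Sham at −0.03. Both probe sets had Hand Acu below TBI, by −0.27 and −0.05. The high value on the TBI array is thus found in 1 of 2 probe sets.

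Dynein light chains bind the intermediate chains. Dynll2, of the LC8 class, had 13.17 in Hand Acu, 13.18 in TBI and 13.04 in Sham, and both its probe sets gave 0.14 for TBI minus Sham. Dynlrb1, of the roadblock class, had 12.56 in Hand Acu, 12.54 in TBI and 12.50 in Sham. Of the Tctex class, Dynlt3 was the steadiest, with 11.98 in Hand Acu, 11.99 in TBI and 11.99 in Sham. Dynlt1 was highest on the Sham array, with 9.75 in Hand Acu, 9.71 in TBI and 9.88 in Sham.

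Dynlt5, of the same class, had 8.49 in Hand Acu, 8.16 in TBI and 8.06 in Sham. It was the highest of the 36 for Hand Acu minus TBI, at 0.33 (1.26-fold), and second for Hand Acu minus Sham, at 0.43 (1.35-fold). It had 1 probe set. Dynll1 and Dctn3 are not among the 51, because their probe sets list several symbols. In all, 6 probe sets list a motor gene beside other genes and were left out.

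Dynein-2 carries cargo from the tip of a cilium back to its base. Its heavy chain Dync2h1 had 8.82 in Hand Acu, 8.75 in TBI and 8.79 in Sham. The intermediate chain Dync2i1 was the steadiest of the 36, with 8.76 in Hand Acu, 8.75 in TBI and 8.76 in Sham. Dync2li1, the light intermediate chain, had 9.38 in Hand Acu, 9.42 in TBI and 9.37 in Sham. The Tctex chain Dynlt2b, which is part of this motor, had 8.88 in Hand Acu, 8.73 in TBI and 8.83 in Sham. These 4 were within 0.15 over the arrays.

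Dync2i2, the other intermediate chain of dynein-2, stood apart from its partners. It had 7.85 in Hand Acu, 7.64 in TBI and 7.37 in Sham, which is below the floor. Hand Acu was 0.48 (1.39-fold) above Sham and TBI 0.27 (1.20-fold) above Sham. Its mean of 7.62 was the nearest above the floor, followed by Dynlt5 at 8.24 and Kif16b at 8.44. Just below the floor were Kif7 at 7.05, Kif23 at 6.62 and Kif22 at 6.33. The 3 genes highest for Hand Acu minus Sham are thus the 3 with the lowest mean signal of the 36. Over all genes the SD of that difference was 0.21 above the floor and 0.16 above the higher floor, so it is wider at low signal.

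Markers of ciliated ependyma and choroid plexus, cells that line the ventricles, were looked at beside these ciliary motors. Of 10 on the array, 7 were above the floor and Rsph1, Dnai1 and Kcne2 were below it. Their median log2 difference was 0.19 for TBI minus Sham, −0.25 for Hand Acu minus TBI and −0.11 for Hand Acu minus Sham. The summed linear signal was 17296 in Hand Acu, 20715 in TBI and 18781 in Sham. Most of it came from Ttr, a choroid plexus marker with log2 signals of 13.82 in Hand Acu, 14.07 in TBI and 13.93 in Sham. So the sum says little about ciliated cells. Of the 7, 6 were lower in Hand Acu than in TBI, where 49.3% of all genes were above 0. The other, Foxj1, was higher, as were Dync2i2 and Dynlt5. For Hand Acu minus Sham the 7 were split. Foxj1 (0.56), Dynlrb2 (0.33) and Tekt1 (0.03) were higher, as were Dync2i2 and Dynlt5, and Ttr, Sostdc1, Prlr and Folr1 were lower. The markers below the floor, Rsph1 (−0.13), Dnai1 (−0.22) and Kcne2 (−0.32), were also lower in Hand Acu than in Sham. The part of ciliated cells in the Dync2i2 and Dynlt5 values was not tested.

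None of the 5 Dctn genes of dynactin, the partner complex of dynein, differed by more than 0.18 in any comparison. Actr1a, Actr1b and Actr10 of the same complex lie outside the naming rule. They had Hand Acu minus TBI of 0.10, 0.21 and 0.31, and TBI minus Sham of −0.05, −0.08 and −0.03. Dctn1, whose product holds the microtubule and the dynein intermediate chain, had 11.67 in Hand Acu, 11.54 in TBI and 11.72 in Sham. Dctn2, the shoulder subunit dynamitin, had 10.78 in Hand Acu, 10.78 in TBI and 10.84 in Sham. Dctn1 was lowest on the TBI array, by 0.18 from Sham. Of the pointed-end subunits, Dctn4 had 8.72 in Hand Acu, 8.87 in TBI and 8.71 in Sham. Dctn5 had 10.96 in Hand Acu, 10.87 in TBI and 10.89 in Sham, and Dctn6 had 11.49 in Hand Acu, 11.46 in TBI and 11.44 in Sham. The medians of the 5 Dctn genes were −0.02 for TBI minus Sham, 0.03 for Hand Acu minus TBI and 0.0045 for Hand Acu minus Sham.

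Kinesins and dyneins can be set side by side. The 16 kinesin genes had median log2 differences of 0.04 for TBI minus Sham, −0.05 for Hand Acu minus TBI and −0.05 for Hand Acu minus Sham. The 20 dynein and dynactin genes had −0.01, 0.04 and 0.04 in the same order. For Hand Acu minus TBI 5 of 16 kinesin genes and 14 of 20 dynein and dynactin genes were above 0, where 49.3% of all genes were. For Hand Acu minus Sham 6 of 16 and 14 of 20 were above 0, where 51.0% of all genes were, and for TBI minus Sham 10 of 16 and 9 of 20, where 51.0% were. These comparisons share arrays, and no test of the split was possible with 1 array per group. The median size of a difference, without its sign, was larger for kinesins than for dyneins in each comparison, at 0.17 against 0.05 for TBI minus Sham, 0.11 against 0.06 for Hand Acu minus TBI and 0.13 against 0.05 for Hand Acu minus Sham. These groups were not matched on signal, and differences are wider at low signal. Over all genes above the floor the median size was 0.11 for TBI minus Sham, 0.10 for Hand Acu minus TBI and 0.11 for Hand Acu minus Sham.

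**Figure D4:**
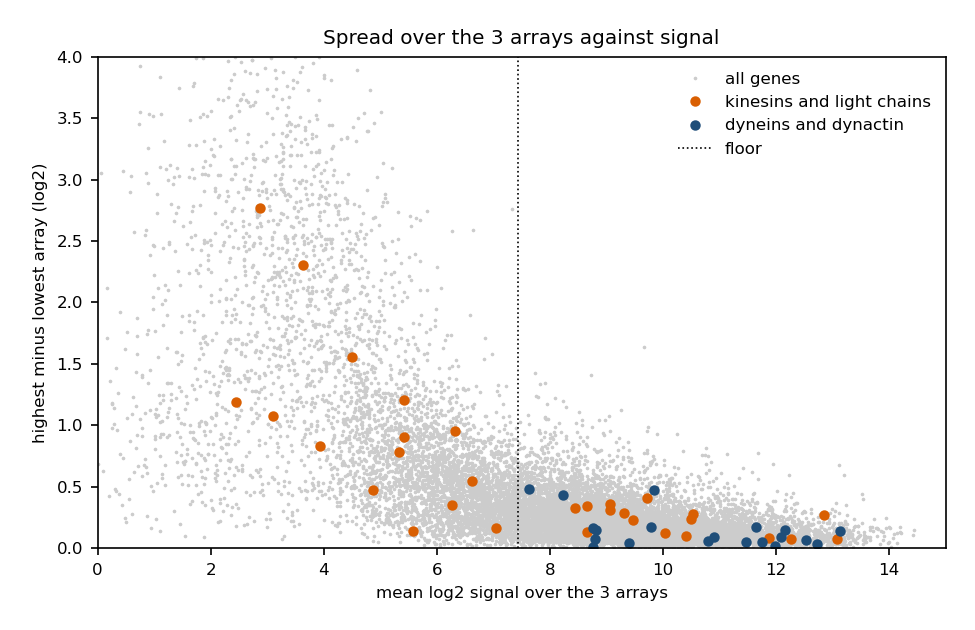
Gap between the highest and the lowest array (log2, vertical axis) against mean log2 signal (horizontal axis) for all genes (grey), kinesins and light chains (orange) and dyneins and dynactin (blue), with the floor as a dotted line and 63 other genes outside the plotted area. The dynein and dynactin genes all lie right of the floor with gaps up to 0.48, and 15 kinesin genes lie left of it, where gaps reach 2.77.

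The 15 genes below the floor were all kinesins or light chains. Of these, 9 belong to families of spindle and division motors: Kif11, Kif12, Kif15, Kif18a, Kif18b, Kif20a, Kif20b, Kif22 and Kif23. Kif11 pushes spindle poles apart, Kif18a trims spindle microtubules and Kif23 is needed for the last step of cell division. The other 6 were Kif14 and Kif2c, which also act in mitosis, Kif7, a regulator of Hedgehog signalling in cilia, Kif6, Klc3 and Kif1b. The 13 markers of dividing cells on the array were all below the floor too, with Mki67, Top2a and Cdk1 among them. Their summed linear signal was 957 in Hand Acu, 877 in TBI and 752 in Sham. Kif1b, a kinesin-3 of mitochondria and synaptic vesicle precursors, had 1 probe set of its own, at 4.91 in Hand Acu, 5.08 in TBI and 4.61 in Sham, and its other probe sets list several symbols and were not used.

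Below the floor, MAS5 values near background scatter widely. Of these 15 genes, 2 were 2-fold apart for TBI minus Sham (13.3%, against 20.6% of the 4976 genes below the floor), 3 for Hand Acu minus TBI (20.0%, against 20.2%) and 3 for Hand Acu minus Sham (20.0%, against 20.5%). These shares are near or under the background, so nothing is read from them. The widest gap was that of Kif14, with 2.01 in Hand Acu, 4.69 in TBI and 1.92 in Sham, all far under the floor.

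The regulators and cargo adaptors of these motors were described from a list of 42 genes. Of 40 on the array, 29 were above the floor, with medians of −0.04 for TBI minus Sham, 0.02 for Hand Acu minus TBI and 0.02 for Hand Acu minus Sham. For TBI minus Sham 1 of 29 was 1.5-fold apart (against 1.55% of all genes), for Hand Acu minus TBI 0 (against 1.21%) and for Hand Acu minus Sham 1 (against 1.89%), which is near the background. In both it was Pafah1b1, which encodes the dynein regulator LIS1. Its brightest probe set had 10.54 in Hand Acu, 10.55 in TBI and 11.28 in Sham, or −0.75 (1.68-fold lower) for Hand Acu minus Sham and −0.73 (1.66-fold lower) for TBI minus Sham. The other probe set above the floor had 10.16 in Hand Acu, 10.12 in TBI and 10.14 in Sham, with differences of 0.02 and −0.02. The difference in this dynein regulator is thus in 1 probe set and not in the other.

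Kifap3, the adaptor subunit of kinesin-2, had 12.54 in Hand Acu, 12.57 in TBI and 12.50 in Sham. Lin7a, which links Kif17 cargo, was lowest on the Hand Acu array, with 7.30 in Hand Acu, which is below the floor, 7.60 in TBI and 7.88 in Sham. Apba1, its partner in that link, had 11.07 in Hand Acu, 10.99 in TBI and 11.38 in Sham. Jakmip1, which binds microtubules and GABA-B receptors, went the other way, with 10.24 in Hand Acu, 10.05 in TBI and 9.70 in Sham. Apba1 and Jakmip1 each have another probe set, below the floor. For Jakmip1 it had −0.98 for TBI minus Sham, against 0.34, and 0.80 for Hand Acu minus Sham, against 0.54. For Apba1 it had 0.31 for Hand Acu minus Sham, against −0.31, and −0.69 for TBI minus Sham, against −0.39. Lin7a, Apba1 and Jakmip1 were named for their size after their values were seen. The microtubule tracks were described from a list too, of which 41 tubulin and microtubule-binding genes, all above the floor, had medians of 0.02, 0.02 and 0.03 in the order TBI minus Sham, Hand Acu minus TBI and Hand Acu minus Sham. For Hand Acu minus TBI 2 of 41 were 1.5-fold apart, both lower, against 1.21% of all genes, and for the other comparisons 0 of 41, against 1.55% and 1.89%. They were Tubb6 at −0.81 and Dcx, the microtubule protein of young neurons, at −0.65. Tubb6 had 7.06 in Hand Acu, 7.86 in TBI and 7.41 in Sham, so its mean passed the floor through the TBI array alone. Each has another probe set, below the floor, with the opposite direction, at 3.68 for Tubb6 and 1.38 for Dcx.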

How the data were processed

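Total RNA of brainstem was extracted with Trizol and 6 µg were labelled for 1 array per group, per the labels' protocols. The deposited values are log2 signals that the authors made with MAS5, per the submitters' processing notes, and its version is not given in the sources used here. Base and scaling were read from the values, since each array's linear signals averaged 500.0 once the outer 2% at both ends were dropped.

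Of 31099 probe sets, 57 were controls and 20826 had 1 gene symbol in the platform annotation of 2016. All 51 motor genes were found by identifier in RefSeq (GRCr8), and 0 symbols changed. Log2 differences, counts and medians were computed with pandas 2.3.3, numpy 2.4.6 and scipy 1.17.1 under Python 3.11.15, figures were drawn with matplotlib 3.10.9, and the steps were tested on simulated data. The motor genes and lists were chosen with earlier results of these data known. Full values were given for principal subunits, the 4 highest and 4 lowest in each comparison, genes at least 1.5-fold apart and genes with several probe sets; the remaining members were added to complete each complex, after their values were seen. Alternatives were quantile normalization, median centring, no floor, a higher floor, an offset of 50, the mean of all probe sets and other fold thresholds.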

Additional observations from a re-analysis of the deposited data

How the results depend on the processing

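No motor gene above the floor was 1.5-fold apart under quantile normalization or centring on the median. The count was also 0 with the higher floor of 9.25, an offset of 50 and a threshold of 2-fold. These last settings keep fewer of the same genes, shrink each difference or ask for more, so they could not raise a count of 0. At the lower threshold of 0.32 on the log2 scale the counts were 2 for TBI minus Sham, 2 for Hand Acu minus TBI and 4 for Hand Acu minus Sham. At 1.5-fold with no floor they were 5, 7 and 5 of 51 in the same order. The shares of all 14217 genes with no floor were 13.6%, 13.2% and 14.3%. The counts of 5, 7 and 5 are thus near or under the background, and nothing is read from them. With the mean of all probe sets the count was 1 of 35 for TBI minus Sham, 0 for Hand Acu minus TBI and 1 for Hand Acu minus Sham. The shares of all genes were 1.62%, 1.38% and 1.71% in that order. The gene counted was Kif3b both times, whose mean then held a probe set below the floor. The medians of the motor genes ranged from −0.0075 to 0.02 for TBI minus Sham, from −0.0037 to 0.03 for Hand Acu minus TBI and from −0.0090 to 0.05 for Hand Acu minus Sham, so their sign carries no weight. With the mean of all probe sets, Kif26b turned to 0.0916 for Hand Acu minus TBI and Kif16b to −0.0028 for Hand Acu minus Sham. Kif16b then also had −0.69 for TBI minus Sham (against 0.23) and 0.69 for Hand Acu minus TBI (against 0.09), past 1.5-fold but not counted, since its mean fell below the floor. Among the values that moved, the sign changed for Hand Acu minus TBI in Kif5c (−0.08 against 0.22), Kif1a (−0.17 against 0.21) and Kif13a (0.11 against −0.13), for TBI minus Sham in Kif26b (−0.07 against 0.23) and Kif3b (0.61 against −0.12), and for Hand Acu minus Sham in Kif3b (0.94 against −0.06) and Kif5c (−0.0069 against 0.27). Of 432 values of single genes under another scaling, offset or probe set rule, 412 moved by less than the SD of all genes' differences in that comparison, and the other 20 all came from the mean of all probe sets. Scaling and the offset changed these differences little, and a gene with 1 probe set cannot move under the mean of all probe sets. The 412 therefore does not measure how steady the genes with several probe sets are. No paired analysis was possible because each group has 1 array. No replicate could be left out for the same reason. The arrays give no error, so differences of the size seen here cannot be told from array noise.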

Other observations

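Motors outside these families were looked at too. Of 17 myosin genes on the array, 11 were above the floor, with medians of −0.01 for TBI minus Sham, −0.05 for Hand Acu minus TBI and −0.05 for Hand Acu minus Sham, and 0 were 1.5-fold apart in any comparison, where the shares of all genes were 1.55%, 1.21% and 1.89%. Myo5a, the actin motor that carries vesicles near the cell surface, had 9.09 in Hand Acu, 9.0 in TBI and 9.21 in Sham. Of 11 genes of axonemal dyneins, which beat motile cilia, and of their assembly, 1 was above the floor. This was Dnal1, with 8.86 in Hand Acu, 8.12 in TBI and 8.40 in Sham. Its 2 other probe sets, below the floor, had Hand Acu minus TBI of 0.53 and −0.09, against 0.73 in the brightest.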
